A study of Mus musculus with 12 samples.

Results

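The mitochondrial respiratory chain is built from proteins encoded in both the nuclear and the mitochondrial genome, and 127 of its genes and near relatives were read from the gene models that accompany an RNA-seq study of mouse nucleus accumbens (NAc), a brain reward region. The members were all gene names that begin with mt-, Nduf, Cox4 to Cox8, Uqcr or Atp5, together with Sdha, Sdhb, Sdhc and Sdhd, out of 35912 gene names in the models. Of the 127 genes, 37 lie on mitochondrial DNA and 90 on nuclear chromosomes. The 37 are 13 mRNA genes, 22 tRNA genes and 2 rRNA genes. The 90 nuclear genes were sorted into complexes by name alone, with every Nduf gene in complex I and every Cox gene in complex IV. They fall into 42 of complex I, 4 of complex II, 8 of complex III, 17 of complex IV and 19 of ATP synthase. By name, 82 of the 90 count as structural subunits, although Atp5l2 among them is labelled pseudogene. The other 8 are the assembly factors Ndufaf1, Ndufaf2, Ndufaf3 and Ndufaf4, the relatives Cox7a2l, Atp5s and Atp5sl, and the copy Atp5l-ps1.

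The study sequenced polyA RNA of NAc in 4 groups of 3 pools, each pool from 3 to 5 C57BL/6 mice of 8 to 10 weeks. Mice of the repeated cocaine group received 20 mg/kg intraperitoneally each day for 7 days, and mice of the acute group received saline for 6 days and then 1 injection of cocaine at the same dose. Each cocaine group had saline controls of its own, injected for 7 days, and tissue was taken 24 h after the last injection. A single set of gene models was deposited for the series. Its name appears to refer to cocaine for 7 days, but no label says which of the 12 pools it was built from. The models give each transcript's exons, its locus, its TSS group (the transcripts of a locus that share a start site) and, where a coding sequence is known, a protein identifier. They carry no value per pool, so the data show how these genes are built and which isoforms and promoters could be told apart, not how cocaine changed them, and no comparison between the 4 groups was possible.

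The respiratory chain passes electrons from NADH through complex I, or from succinate through complex II, to ubiquinone, then through complex III and cytochrome c to complex IV, where oxygen is reduced. Complexes I, III and IV pump protons across the inner membrane, and ATP synthase uses that gradient to make ATP. Mitochondrial DNA encodes core membrane subunits of all but complex II, is transcribed on both strands into long precursors, and uses a genetic code of its own. Neurons depend heavily on this pathway for ion pumping and synaptic transmission. The gene models were nearly those of the reference annotation: all 320 member transcripts carried an identifier found in GENCODE M1, an annotation of the same genome build (NCBIM37, mm9), and 317 had identical exons there. Presence of a model is therefore not a measure of expression in NAc. The 3 transcripts whose exons differed belonged to Atp5l2, Uqcrb and Ndufa7.

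On the mitochondrial genome of 16299 bases, the 37 genes covered 94.3%. The lengths of the 13 mRNA genes added up to 11403 bases (70.0% of the genome), with shared bases counted in both genes. Each of the 37 was a single transcript of 1 exon. The plus strand carried 28 genes and the minus strand 9, and the 9 were mt-Nd6, a complex I subunit, and 8 tRNA genes. In order of position after the tRNA gene mt-Tf came mt-Rnr1 and mt-Rnr2 (the rRNAs of the small and large ribosomal subunits), then mt-Nd1 and mt-Nd2 of complex I, mt-Co1 and mt-Co2 of complex IV, mt-Atp8 and mt-Atp6 of ATP synthase, mt-Co3 of complex IV, mt-Nd3, mt-Nd4l, mt-Nd4, mt-Nd5 and mt-Nd6 of complex I, and mt-Cytb, cytochrome b of complex III. Between them stood the tRNA genes, of 59 to 75 bases with a median of 68.5. Of the 13 mRNA genes, 12 were next to a tRNA gene and 6 stood between a tRNA gene on each side. The last 877 bases, after the tRNA gene mt-Tp, held no member.

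**Figure D1:**
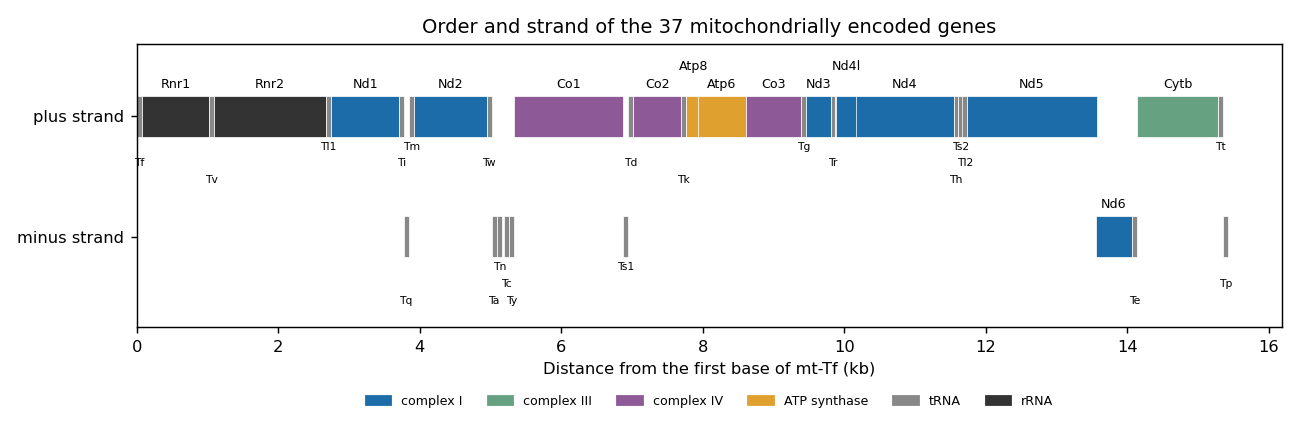
Position of the 37 mitochondrially encoded genes along mitochondrial DNA, as distance from the first base of mt-Tf in kb, on the plus strand (upper row) and the minus strand (lower row). Bars are genes drawn to scale and coloured by complex or RNA class, with names shortened by the prefix mt-. The upper row holds 28 genes and the lower row 9, of which mt-Nd6 is the one mRNA gene.

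Neighbouring mitochondrial genes left almost no space. Of 36 neighbour pairs, 9 overlapped and 12 abutted, so that 21 pairs (58.3%) had no gap, and 13 further pairs were separated by 1 to 4 bases. The largest gap was 32 bases, between mt-Tn and mt-Tc. In all, 76 bases belonged to 2 genes. The largest overlap, 43 bases, joined mt-Atp8 to mt-Atp6, and mt-Nd5 and mt-Nd6 overlapped by 14 bases on opposite strands. The pair mt-Nd4l and mt-Nd4 shared 7 bases, and mt-Atp6 and mt-Co3 shared 1. The sequences of these 4 junctions are shown because reads from the shared bases cannot be given to a single gene by position. Bases in capitals lie in both genes, and all are written on the plus strand of chromosome M, at 7917-7979, 8595-8619, 10155-10185 and 13540-13577.
mt-Atp8 to mt-Atp6: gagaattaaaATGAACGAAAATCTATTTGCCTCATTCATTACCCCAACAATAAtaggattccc
mt-Atp6 to mt-Co3: tgataatacataAtgacccaccaaa
mt-Nd4l to mt-Nd4: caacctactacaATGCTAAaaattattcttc
mt-Nd5 to mt-Nd6: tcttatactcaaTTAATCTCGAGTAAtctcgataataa

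In the first of these junctions, the capitals open with the ATG of mt-Atp6 and close with the TAA of mt-Atp8. In the second, a single A closes the TAA of mt-Atp6 and opens the ATG of mt-Co3. Overlap on the same strand also decided how the models were grouped into loci. The 37 genes formed 31 loci, of which 5 held more than 1 gene: mt-Nd1 with mt-Ti, mt-Nd2 with mt-Tw, mt-Atp8 with mt-Atp6 and mt-Co3, mt-Nd4l with mt-Nd4, and mt-Ts2 with mt-Tl2. These 5 loci held 11 genes. The 3 overlaps on opposite strands, mt-Ti with mt-Tq, mt-Co1 with mt-Ts1 and mt-Nd5 with mt-Nd6, stayed as separate loci. The library protocol in the labels names no step that marks strand, and without strand the reads of mt-Nd5 and mt-Nd6 in their shared bases cannot be told apart.

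The mitochondrial mRNA models held coding sequence only, from the start codon to the last base of the stop. Their lengths ran from 204 bases for mt-Atp8 to 1824 bases for mt-Nd5. Of the 13, 9 began with ATG, and the other 4 were mt-Nd1 with GTG, mt-Nd2 with ATA, mt-Nd3 with ATT and mt-Nd5 with ATC. A complete stop codon closed 10 models, TAA in 8 and TAG in mt-Nd1 and mt-Nd2. The remaining 3, mt-Co3 of 784 bases, mt-Nd4 of 1378 and mt-Cytb of 1144, were 1 base longer than a multiple of 3 and ended in a single T, which polyadenylation is known to complete to TAA. Their ends are shown with that T in capitals, on the plus strand of chromosome M at 9375-9405, 11529-11559 and 15273-15303.
mt-Co3 end: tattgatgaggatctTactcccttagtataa
mt-Nd4 end: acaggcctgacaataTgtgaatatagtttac
mt-Cytb end: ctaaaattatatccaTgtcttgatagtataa

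Codon TGA, a stop in the nuclear code and tryptophan in the mitochondrial code, stood inside 12 of the 13 models, 96 times in all. The count ran from 0 in mt-Nd4l to 17 in mt-Co1. Among 86 nuclear members with a complete coding sequence in GENCODE M1, none had TGA inside its frame and all 86 began with ATG. Both follow largely from how such a frame is annotated, from a start codon to a stop codon. GC content did not overlap between the groups. It was 31.9% to 41.1% in the mitochondrial mRNA genes, with a median of 37.1%, and 41.5% to 65.2% in the nuclear coding sequences, with a median of 53.5%. The single mRNA gene of the minus strand, mt-Nd6, held 28.1% G and 5.97% C on its coding strand, against 5.88% to 16.1% G in the other 12.

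All but 2 of the 90 nuclear genes had more than 1 exon. Of the 90, 55 had 2 or more transcripts and 35 had 1. Over all nuclear genes with a protein identifier, these shares were 56.8% and 43.2%. The medians of size of the 90 lay below those of other nuclear genes. Their 283 transcripts held a median of 4 exons, against 5 over the transcripts of all 22544 nuclear genes with a protein identifier, the comparison set used below. Their median genomic span was 7333 bases against 15000.5, and the median longest transcript of a gene was 943.5 bases against 2394. Coding sequences had a median of 433.5 bases with the stop codon against 1170, and 3′ untranslated regions a median of 153 bases against 549. Single exons and introns were of a more usual size. The median exon had 146 bases against 143 and the median intron 1214 against 1415. The longest transcript of a member had a median of 4 exons, against 6.

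Within the 90, size followed exon number only loosely. Ndufs1, an iron-sulfur subunit of complex I that receives electrons from NADH, had the most exons, 19, over 33227 bases. The longest spans belonged to Atp5o (247290 bases), Ndufaf2 (106036), Cox7b2 (105382), Ndufs4 (100300) and Ndufa10 (34851), a stalk subunit of ATP synthase, an assembly factor of complex I, a subunit of complex IV and a pair of subunits of complex I. Cox7b2 reached its span with 3 exons. The shortest were Atp5l-ps1 (312 bases), Atp5l2 (391), Cox6a2 (931), Atp5k (1205) and Cox8c (1229). Atp5l-ps1 and Atp5l2 were also the 2 nuclear members with a single exon, 2.22% of members against 12.8% of all nuclear genes with a protein identifier, and both are named as relatives of Atp5l, subunit g of ATP synthase. Atp5l2 is labelled pseudogene and was the 1 nuclear member without a protein identifier.

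**Figure D2:**
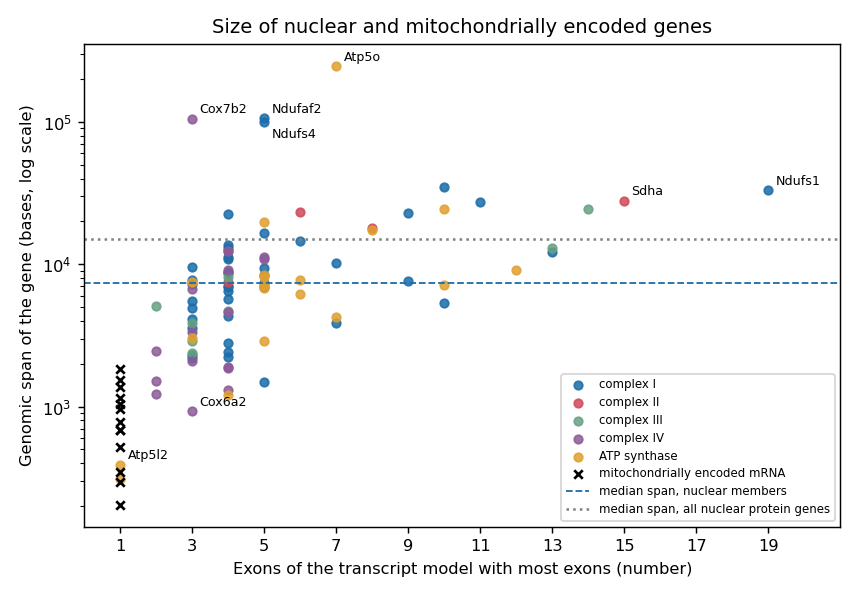
Genomic span of each gene in bases on a log scale against the exon number of its transcript model with most exons. Points are the 90 nuclear genes coloured by complex and crosses are the 13 mitochondrially encoded mRNA genes, all at 1 exon. The dashed line is the median span of the nuclear members (7333 bases) and the dotted line that of all nuclear genes with a protein identifier (15000.5 bases).

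The span of Atp5o rested on 1 transcript. It had 4 exons and an intron of 240088 bases, and 2 of its exons overlapped exons of Donson, a replication gene on the same strand, whereas the other 6 transcripts of Atp5o had no exon in Donson. Atp5o and Donson therefore shared a locus. In the same way Ndufb8 shared a locus with RP23-83K12.3 and Sec31b, through an exon that 4 of its 8 transcripts had in common with RP23-83K12.3, and Ndufb2 shared one with Adck2, through an exon of 4 of its 6 transcripts. These 3 were 3.33% of nuclear members, against 3.54% in the comparison set. No member name stood at more than 1 locus.

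Transcript number differed more between complexes than between the members and other genes. Members had a median of 2.5 transcripts a gene and a mean of 3.14, against 2 and 3.22. The median was 4 in ATP synthase, 3 in complexes II and III, 2 in complex I and 1 in complex IV, where 11 of 17 genes had a single transcript. In complex I, Ndufv1 (the flavin-binding subunit that oxidises NADH) had 11 transcripts, Ndufab1 (the mitochondrial acyl carrier protein) 10 and Ndufb8 8. Sdha, the flavoprotein of complex II that oxidises succinate, had 8, and Sdhb (an iron-sulfur subunit) and Sdhc (a membrane anchor) 3 each. In complex III, Uqcrc2, a core protein, had 6, the hinge protein gene Uqcrh 5 and Uqcrq 4. Cox6c and Cox7c had 4 each and Cox7b 3 in complex IV. In ATP synthase, Atp5j (coupling factor 6) had 12, Atp5b (the catalytic beta subunit) 8 and Atp5c1 (the rotating gamma subunit) 7, a number that Atp5h and Atp5o shared.

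Many of these transcripts were not coding. Of the 283, 168 (59.4%) had a protein identifier, against 69.8% in the comparison set, and 32 members (35.6%) had more than 1 protein identifier against 44.9%. GENCODE M1 calls 61 of them (21.6%) retained intron, 52 (18.4%) processed transcript and 16 (5.65%) nonsense-mediated decay, against 14.5%, 14.9% and 4.75% of transcripts in the comparison set. Atp5b and Sdha had the same pattern, with 8 transcripts and 1 protein identifier each. Uqcrc2 had 1 transcript with a protein identifier among 6, as did Ndufs3. In contrast, all 7 transcripts of Atp5c1 and all 7 of Ndufb5 carried a protein identifier. GENCODE M1 still calls 2 of the 7 of Ndufb5 nonsense-mediated decay, so a protein identifier alone does not mark a transcript as protein coding there.

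**Figure D3:**
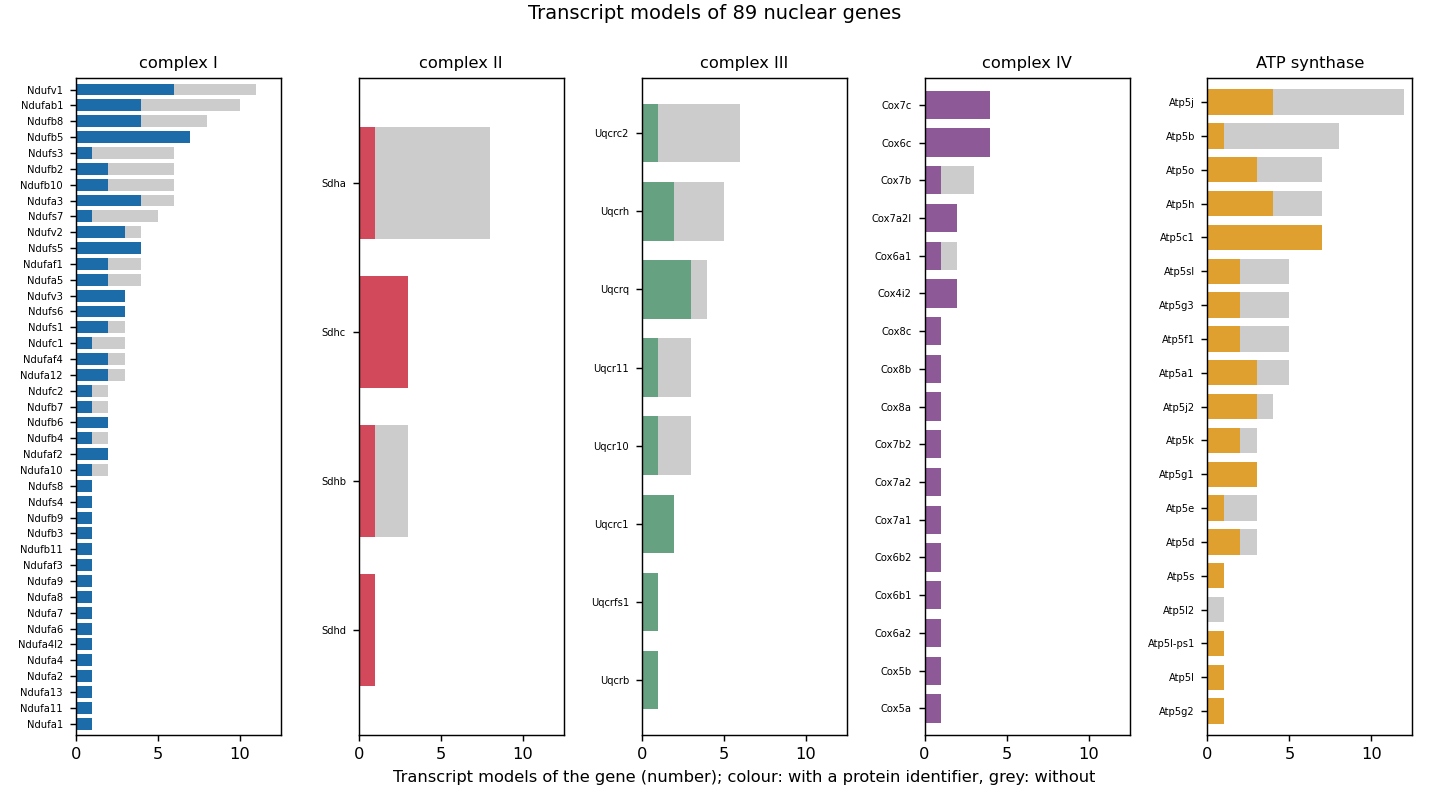
Number of transcript models of each of 89 nuclear genes, in a panel for each complex. The coloured part of a bar counts models with a protein identifier and the grey part those without. Atp5j has the most models (12) and Atp5b has 8, of which 1 has a protein identifier.

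Promoter use could be examined only for genes with more than 1 TSS group. None of the 37 mitochondrial genes had a TSS group, because single-exon transcripts carry none. Of the nuclear members, 39 of 90 (43.3%) had more than 1, against 43.6% in the comparison set. However, 65 of the members' 181 TSS groups (35.9%) held no transcript with a protein identifier, against 28.7%. Of the 39 members, 18 (46.2%) had 2 or more groups with a protein identifier, against 72.9% of the genes with more than 1 group in the comparison set. The groups without a protein identifier were 26 of 55 in ATP synthase, 28 of 78 in complex I, 4 of 8 in complex II, 6 of 15 in complex III and 1 of 25 in complex IV. Atp5j had 9 TSS groups, of which 2 had a protein identifier, and Atp5b 7, of which 1 did. Cox6c and Cox7c were the opposite, with a protein identifier in each of 4 groups. In each of these genes, 1 of the 4 groups held only a transcript that GENCODE M1 calls nonsense-mediated decay.

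Among the 55 members with 2 or more transcripts, an alternative donor (a changed 5′ splice site) occurred in 22 (40.0%), against 25.3% in the comparison set. A cassette exon occurred in 23 (41.8%) against 47.0%, a retained intron in 21 (38.2%) against 33.5%, and an alternative acceptor in 12 (21.8%) against 27.8%. The members had 28 cassette exons, with a median of 93.5 bases, and 12 (42.9%) had a length divisible by 3, against 51.4%. The longest was in Ndufv3, a regulatory subunit at the flavin end of complex I. Its cassette exon of 1092 bases, a multiple of 3, lies at chr17:31664255-31665346 between exons of 124 and 212 bases, and was present in 1 of 3 transcripts. Another transcript skipped it, and the remaining transcript ended in a different last exon upstream of it. All 3 started in the same TSS group.

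The start sites of nuclear members often faced another gene. A head-to-head neighbour, a gene on the opposite strand whose start lies upstream and within 1000 bases, was found for 22 of 90 members (24.4%), against 9.13% in the comparison set. The neighbour had a protein identifier for 21 of the 22, against 1582 of 2059 in the comparison set. The median distance between starts was 107 bases against 144. The 5 closest pairs were Ndufs1 with Eef1b2 (a translation elongation factor) at 3 bases, Sdha with Ccdc127 at 29, Ndufa8 with Morn5 and Sdhd with Timm8b (a mitochondrial import chaperone) at 52 each, and Ndufb3 with Fam126b at 61. By complex, 3 of the 4 complex II genes were among the 22. No gene with a Cox name was among them.

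Exons of 18 nuclear members (20.0%) overlapped exons of a gene on the opposite strand, against 16.3% in the comparison set. The largest overlap was between Atp5j and Gabpa, at 397 bases. Gabpa encodes the DNA-binding subunit of a factor known to activate respiratory chain genes, and its model began inside that of Atp5j. Atp5o overlapped Gm15976 by 356 bases and D430001F17Rik by 350, Ndufa13 overlapped Tssk6 by 375, and Atp5f1 overlapped Wdr77 by 337. In these stretches, reads of the members and their partners cannot be told apart without strand.

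Promoters of the 89 nuclear members with a protein identifier were read from 250 bases before to 50 after the furthest upstream start of a coding transcript. Both strands were searched for motifs of factors known for this gene family. NRF1 (nuclear respiratory factor 1, by its GC-rich consensus, of which the capitals below are examples) matched in 15 (16.9%), against 5.96% of the 22544 promoters of the same length. GABPA (CCGGAAG) matched in 16 (18.0%) against 10.7%, and YY1 (AAGATGGCG) in 6 (6.74%) against 1.81%. At least 1 of these 3 motifs was present in 33 promoters (37.1%) against 16.7%. The general motifs lay nearer to the comparison set. SP1 (GGGCGG) matched in 41 (46.1%) against 43.2%, and the TATA box (TATAAA) in 9 (10.1%) against 13.6%. With every distinct transcript start in place of 1 a gene, SP1 turned to 37.9% of members' promoters against 40.5%. Median GC content was 56% against 55%, while the median number of CpG was 17 against 11, and the NRF1 motif itself holds CpG. A match says only that these letters are present.

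**Figure D4:**
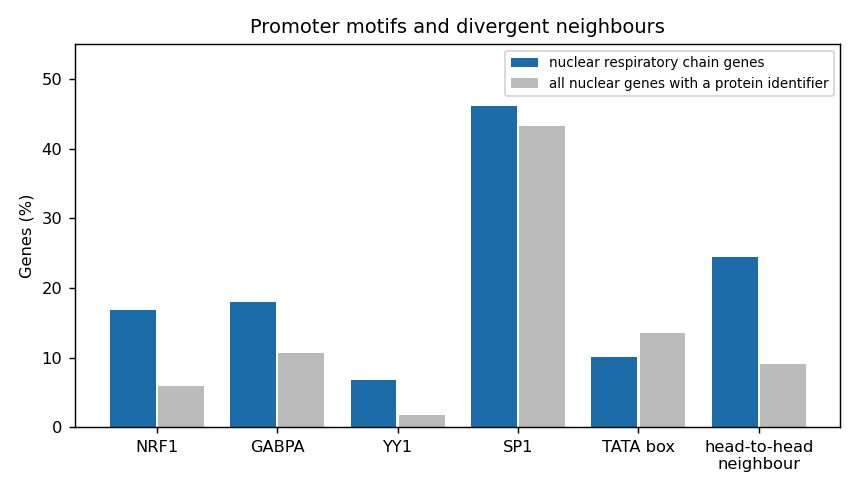
Percent of nuclear respiratory chain genes (blue) and of all nuclear genes with a protein identifier (grey) whose promoter holds each motif on either strand, and percent with a head-to-head neighbour within 1000 bases. The NRF1 motif is in 16.9% of the members' promoters and 5.96% of all promoters, and a head-to-head neighbour is present for 24.4% and 9.13%.

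NRF1 matches fell in Sdha and Sdhd of complex II, in Cox6a1 of complex IV, in Uqcrc1 of complex III, in 7 genes of complex I and in Atp5g2, Atp5g3, Atp5h and Atp5k. Sdha had 3 separate matches. Windows around the match furthest upstream are shown for 3 genes, each 5′ to 3′ on the gene's own strand with the motif in capitals. The motif itself reads on the opposite strand in Sdha and Sdhd, and on both strands in Cox6a1. They lie on the minus strand at chr5:115799110-115799139, chr13:74487767-74487796 and chr9:50412014-50412043, and their motifs begin at -139 in Cox6a1, -58 in Sdha and -79 in Sdhd, counted in bases from the start site.
Cox6a1 NRF1: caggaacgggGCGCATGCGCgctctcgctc
Sdha NRF1: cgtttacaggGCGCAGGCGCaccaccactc
Sdhd NRF1: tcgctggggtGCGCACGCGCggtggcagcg

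YY1 matches had a common place. In 5 of the 6 promoters, those of Atp5sl, Ndufa2, Ndufa9 and Ndufs4 among them, the motif stood on the gene's own strand after the start, and in all 5 its ATG was the start codon of the gene in GENCODE M1. Over all 407 promoters with a YY1 match, the motif was on the gene's own strand after the start in 207 (50.9%), with its ATG a start codon in 128. The match in Atp5h was upstream, on the opposite strand. The 3 printed windows carry the motif in capitals on the gene's own strand, at chr13:115178253-115178277 and chr6:126799115-126799143 on the minus strand and chr7:26404449-26404477 on the plus strand.
Ndufs4 YY1: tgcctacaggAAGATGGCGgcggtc
Ndufa9 YY1: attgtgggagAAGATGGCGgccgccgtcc
Atp5sl YY1: gttacctggcAAGATGGCGgcgcccagag

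Some members had near-identical copies elsewhere in the genome, between which a read counter can split or share reads. A copy was counted where at least 90% of bases were identical over at least 80% of the coding sequence. Of 86 nuclear members searched, 31 (36.0%) had a copy, with 86 alignments at 75 distinct loci on 20 chromosomes. The share was 24.4% at 95% identity and 10.5% at 99%. By complex, 11 of 41 genes of complex I, 4 of 7 of complex III, 7 of 16 of complex IV, 9 of 18 of ATP synthase and none of the 4 of complex II had a copy. The number of alignments was highest in ATP synthase, at 47, but all 11 of Atp5l-ps1 were at loci also among the 14 of the related Atp5l. The 14 of Atp5l include the members Atp5l2 and Atp5l-ps1 themselves. Atp5l and Atp5l-ps1 were followed by Atp5h with 8 and Cox7c with 6. Atp5g2, Atp5l, Cox7c and Ndufb4 each had a copy identical over its aligned length. A gene model lay at 51 of the alignments, labelled pseudogene at 41, and 35 had no model. These loci were not compared with those of other genes.

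Of the mitochondrial genes, 9 of 13 mRNA genes, 16 of 22 tRNA genes and neither rRNA gene had such a copy in nuclear DNA. The longest nuclear stretch of mitochondrial sequence, at chr1:24618374-24623027, matched mitochondrial DNA at 99.9% identity over 4654 aligned bases and held 11 whole members, 6 of them mRNA genes. These 6, mt-Co2, mt-Atp8, mt-Atp6, mt-Co3, mt-Nd3 and mt-Nd4l, had an identical copy over the aligned length. The models Gm10222 and Gm10925 lie there, both labelled protein coding and both with a protein identifier. Gm10222 covers the copy of mt-Nd4l in 1 exon and Gm10925 lies in the copy of mt-Atp8 and mt-Atp6 with 2 exons. Shorter stretches were at chr2:22442808-22446054 (97.4% identity) and chr4:79648234-79651108 (93.0%).

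**Figure D5:**
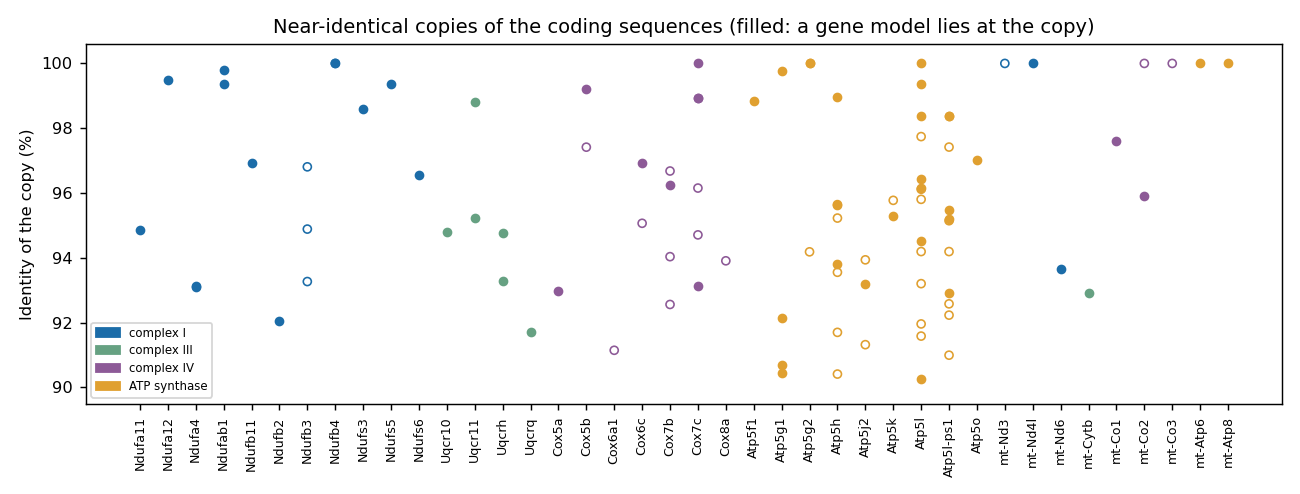
Identity in percent of each near-identical copy to the coding sequence of its gene, for the 31 nuclear and 9 mitochondrial mRNA genes with at least 1 copy, coloured by complex. Filled points have a gene model at the copy and open points have none. The vertical axis begins below 90%, the lowest identity counted. The 6 mitochondrial and 4 nuclear genes with an identical copy have a point at 100%.

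Muscle and other tissues are known to use different members of several complex IV gene pairs. Coding identity, over aligned bases, was 66.6% for Cox6a1 and Cox6a2, 65.9% for Cox6b1 and Cox6b2, 67.4% for Cox7a1 and Cox7a2, and 68.1% for Cox8a and Cox8b. All of these had a single transcript except Cox6a1, with 2. Cox8c had 1 transcript and 2 exons, and Cox4i2 had 2 transcripts. The 3 genes Atp5g1, Atp5g2 and Atp5g3, which are known to encode the same mature subunit c of ATP synthase behind different import sequences, were 72.6% to 78.7% identical over the coding sequence and 78.7% to 84.9% over its last 75 codons. They had 3, 1 and 5 transcripts.

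The other genes of the pathway were larger and had more start sites than the members. Of 36 listed genes, mostly of assembly factors and regulators, all 36 were found. They had a median of 4 transcripts, 7 exons in the longest transcript and a span of 14854 bases, and 69.4% had more than 1 TSS group. Over all nuclear genes with a protein identifier these values were 2, 6, 15000.5 bases and 43.6%, so the span of the listed genes was near that of all genes. The transcription factor gene Nrf1 had 20 transcripts in 6 TSS groups, Gabpb1 13 in 4 and Gabpa 6 in 5. Tfam, whose protein packages mitochondrial DNA and helps to start its transcription, had 5 in 4. The cytochrome c gene Cycs had 2 transcripts and the cytochrome c1 gene Cyc1 had 1. Sco2 and Sdhaf1, assembly factors of complexes IV and II, had a single exon.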

How the data were processed

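PolyA RNA of pooled nucleus accumbens was sequenced in 12 samples (4 groups of 3 pools). The authors aligned reads with TopHat to Ensembl NCBIM37.62 and combined models with the Cufflinks package. CASAVA and Cuffdiff are further tools in the submitters' processing notes, which give build mm9 but no tool version. The authors deposited 1 set of gene models: first and last base of each exon, with identifiers. It holds 0 columns of values per sample (no counts, RPKM or FPKM), so the file shows neither depth nor replicate error and no test was run.

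Members and lists were chosen with earlier results of these data known. Named genes were all mitochondrial members, the 3 nuclear genes with most transcripts per complex, the 5 longest and 5 shortest, single-exon genes, genes sharing a locus, tissue paralogs and the 5 closest head-to-head pairs. Genes named for motifs, copies, opposite-strand overlap, Ndufv3, Ndufb5 and Ndufs3 were chosen after their values were seen. Cox4i1 was not analysed here, and some items are not reported here. Most values of the nuclear members as a whole were set beside those of all nuclear genes with a protein identifier. Copies, paralogs, coding GC content and counts by complex or chromosome had no such value beside them. Coding bounds came from GENCODE M1 and sequence from NCBIM37, read with pysam 0.24.0. Copies were searched with BLAST 2.17.0 (word size 16) on assembled chromosomes, and matches of at least 1000 bases to whole mitochondrial DNA were also listed. Counting code was tested on small constructed examples with known answers, of which 13 of 13 passed.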

Additional observations from a re-analysis of the deposited data

How the results depend on the processing

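No paired analysis was possible because the gene models hold no value per sample. Of 29 alternatives, 22 kept the value within a tolerance and 7 moved it beyond. The tolerance was the exact 95% binomial interval for a percent and 1.5 times for a count or a median. It is wide and measures no sampling error, since the members are a complete list by name. Within it, GABPA went from 18.0% to 27.0% of members' promoters in a window of 500 bases before to 100 after the start, against 13.6% of all promoters. Counting only transcripts with a protein identifier took the median transcripts per nuclear member from 2.5 to 1. The percent of nuclear members with more than 1 TSS group was 60% by distinct transcript starts and 20% by groups with a protein identifier, against 43.3%. YY1 matches were in 12.4% of members' promoters in a window of 500 bases before to 100 after the start, within that interval of 6.74%, against 2.54% of all promoters. TATA box matches were in 19.1% of members' promoters in the same window, against 26.3% of all promoters. With gaps of up to 3 bases counted as none, 94.4% of mitochondrial neighbour pairs had no gap, against 58.3%. The percent of nuclear members with a near-identical copy, an analysis chosen after seeing the data, fell to 24.4% at 95% identity and 10.5% at 99%. For the number of mitochondrial mRNA models whose length is not a multiple of 3, no alternative could be set. The head-to-head share stayed between 23.3% and 26.7%, and that of all genes between 7.02% and 10.5%. The models follow the annotation closely, so annotation depth limits every isoform count.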

Other observations

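Nuclear members were spread over 19 of 21 nuclear chromosomes. Chromosome 7 held 11, among them Cox6a2, Cox6b1, Cox6b2, Cox7a1 and Cox8b of complex IV, and chromosomes 14 and Y held none. Cox7b, Ndufa1 and Ndufb11 were on chromosome X. The plus strand carried 30 of the 90 nuclear members (33.3%), against 49.9% of all nuclear genes with a protein identifier.

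Of the 500 introns of nuclear members, 493 (98.6%) had GT at the 5′ end and AG at the 3′ end, against 97.3% over all nuclear genes with a protein identifier. GC and AG bounded 4, in Atp5h, Ndufaf4, Sdhd and Uqcrq, and 3 had other ends, in Ndufaf2, Ndufs1 and Uqcrc1. None had AT and AC.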
